A study of Homo sapiens with 2 samples.

Results

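The cells described here are Nalm-6 cells with a high share of transcripts from 8 genes of replication licensing and early DNA synthesis: MCM2, MCM5, MCM6, PCNA, CCNE2, CDC6, UNG and GINS2, called the rule genes below. Each kept cell was scored by the rule genes' UMIs (unique molecular identifiers, each marking 1 captured transcript) as a share of all its UMIs, and the top 15% of kept cells within each library were taken as members. Members numbered 340 of 2267 kept ETV6-RUNX1 cells and 280 of 1870 kept LUC control cells, in all 620 of 4137 kept cells and of 4706 barcodes deposited. The rule was made with values of these data, so the rule genes' levels are given as a description, and the members are compared with the remaining kept cells without a test.

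The study compared 2 libraries of Nalm-6, an established human leukemia line of B-cell precursor type, under a series title on arrested B-lymphoid differentiation. Both lines were modified to carry a Tet-On construct and both received 500 ng/ml doxycycline for 24 h, which induced the ETV6-RUNX1 fusion in the first and luciferase (LUC control) in the second. Beads were used to remove dead cells, and poly-A transcripts were barcoded cell by cell on the 10X system. There was 1 library per construct, so a difference between constructs cannot be told apart from a difference between cultures, clones or library preparations; the labels give neither the clonality of the lines nor the promoter beyond Tet-On. Intervals below are 95% intervals of counting error only.

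Before a cell copies its DNA, the origin recognition complex and CDC6 load the ring of MCM2 to MCM7 onto origins in G1, which is called licensing. At the start of S phase, cyclin E (CCNE1, CCNE2) with CDK2 and the kinase CDC7 with DBF4 turn the loaded rings into active helicases by adding CDC45 and the GINS complex, of which GINS2 is a subunit. PCNA is the sliding clamp that holds polymerases on the template, and UNG removes uracil from new DNA. These genes are textbook targets of E2F factors, which are released from RB1 when CDK activity rises, and histone genes are transcribed strongly once synthesis is under way.

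The promoters of 5 rule genes held a core E2F motif, and these are shown because the rule genes are among the genes through which E2F activity is commonly read. The search took TTTCCCGC, TTTGGCGC or TTTCGCGC on either strand, from 250 bases before to 50 bases after the gene's start, in RefSeq promoters of GRCh38.p14 matched by symbol; a match on one strand can overlap a match on the other. Capitals mark the matches in the stretch from 180 bases before the start to 20 bases after it.
MCM6 (chr2:135876424-135876623, minus strand): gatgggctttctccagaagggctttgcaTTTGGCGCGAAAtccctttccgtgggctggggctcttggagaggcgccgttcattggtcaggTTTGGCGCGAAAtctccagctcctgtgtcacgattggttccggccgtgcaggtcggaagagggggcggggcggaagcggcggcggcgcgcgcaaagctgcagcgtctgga
MCM2 (chr3:127598231-127598430, plus strand): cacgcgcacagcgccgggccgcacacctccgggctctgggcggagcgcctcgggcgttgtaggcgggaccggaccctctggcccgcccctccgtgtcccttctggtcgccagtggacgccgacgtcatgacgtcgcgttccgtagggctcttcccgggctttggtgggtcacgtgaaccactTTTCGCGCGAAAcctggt
CDC6 (chr17:40287699-40287898, plus strand): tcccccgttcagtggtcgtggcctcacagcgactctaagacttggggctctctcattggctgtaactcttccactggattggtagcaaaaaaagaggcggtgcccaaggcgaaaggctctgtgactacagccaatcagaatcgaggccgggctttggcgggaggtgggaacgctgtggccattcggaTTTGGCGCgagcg
GINS2 (chr16:85688935-85689134, minus strand): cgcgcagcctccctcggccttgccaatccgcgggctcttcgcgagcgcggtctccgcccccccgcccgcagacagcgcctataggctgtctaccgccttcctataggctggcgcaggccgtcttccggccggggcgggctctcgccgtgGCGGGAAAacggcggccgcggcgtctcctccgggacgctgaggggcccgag
PCNA (chr20:5126603-5126802, minus strand): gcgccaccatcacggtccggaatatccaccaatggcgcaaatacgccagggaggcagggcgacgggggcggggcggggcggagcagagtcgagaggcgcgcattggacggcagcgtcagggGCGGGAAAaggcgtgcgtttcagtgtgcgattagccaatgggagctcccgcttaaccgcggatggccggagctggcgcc
MCM6 held 4 matches in 2 overlapping pairs, with first bases at -152, -148, -90 and -86 relative to the start. MCM2 held an overlapping pair just past its start, CDC6 held 1 match there, and GINS2 and PCNA each held 1 match upstream, at -31 and -59. The second PCNA promoter and both UNG promoters held none of these letters, and MCM5 and CCNE2 were not matched in the table. In all, 5 of 8 promoters of rule genes (62.5%) held the motif, against 5.21% of 6715 promoters of measured genes and 2.74% of all 35116 promoters of the same length. A match is a description of sequence and not a binding site.

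Members were the upper end of a continuous distribution. The score had a median of 0.0959% of UMIs in members and 0.0403% in remaining cells of the ETV6-RUNX1 library, and of 0.104% and 0.0451% in the LUC control library. The lowest member stood at 0.07997% and the highest cell outside at 0.07997% with ETV6-RUNX1, against 0.0873% and 0.0872% in the control. Within 10% of that threshold lay 241 cells with ETV6-RUNX1, 93 of them members, and 189 control cells, 77 of them members. The class is therefore a range of a score and not a type of cell.

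The score rests on few molecules, a median of 18 rule-gene UMIs per member with ETV6-RUNX1 and 23 in the control, against 7 and 10 in remaining cells. Each cell's UMIs were therefore divided at random into 2 equal parts. Of members chosen on 1 part, 38.8% (33.6 to 44.2) of those with ETV6-RUNX1 and 44.6% (38.7 to 50.7) of control members were also in the top 15% on the other part, against 15% of all cells. Above the median of the other part stood 82.6% and 87.1%. Membership of a single cell is thus loosely set, while the group as a whole was high in both parts.

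Members were slightly shallower than the remaining cells. Their median depth was 18109 UMIs and 3225.5 genes with ETV6-RUNX1, against 19386 UMIs and 3273 genes in remaining cells, and 20842 UMIs and 3558 genes in the control, against 22888 and 3641. Members made up 15.2%, 18.4%, 14.8% and 11.6% of cells from the shallowest to the deepest depth quartile with ETV6-RUNX1, and 16.7%, 19.9%, 17.1% and 6.20% in the control. Mitochondrially encoded genes gave a median of 4.37% of UMIs in members and 4.54% in remaining cells with ETV6-RUNX1, and 4.25% and 4.40% in the control. The summed UMIs behind the members' levels were 6192078 and 5813771. No member was called a doublet by Scrublet, which called 14 and 16 kept cells (0.618% and 0.856%). The libraries shared 16 barcodes, of which 7 were kept in both and 0 were members in both.

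The members' transcripts were those of a B-cell precursor line in both libraries. VPREB1 and DNTT, which encode a surrogate light chain component and terminal transferase, stood at 606 and 432 CPM (UMIs scaled to a fixed total of summed UMIs) in ETV6-RUNX1 members, against 937 and 404 CPM in control members. Of 24 listed genes of other cell types (T, natural killer, myeloid, erythroid, platelet, stem, epithelial and stromal cells), 16 had 0 UMIs in the members of both libraries, among them CD3D, CD14, HBB, PPBP and EPCAM. Without VIM and CST3, which lymphoid blasts also express, the list summed to 5.98 CPM in ETV6-RUNX1 members and 8.42 CPM in their remaining cells, against 11.7 and 10.2 CPM in the control. NKG7, listed for natural killer cells, gave the largest part of these sums, at 3.71 CPM in ETV6-RUNX1 members and 7.05 CPM in control members. It was at 4.82 and 6.12 CPM in the remaining cells of the 2 libraries. ETV6, a part of the construct, was at 12.6 CPM in ETV6-RUNX1 members and 7.57 CPM in control members, a log2 ratio of 0.74 (0.18 to 1.30). RUNX1 was at 35.4 and 40.8 CPM, -0.20 (-0.48 to 0.07); whether reads of the construct count for either gene depends on its end, which the labels do not give.

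Among the rule genes, PCNA gave the largest part of the score. PCNA was at 383 CPM in ETV6-RUNX1 members and 130 CPM in remaining cells, against 436 and 153 CPM in the control, log2 ratios of 1.56 (1.49 to 1.64) and 1.51 (1.44 to 1.58). In cells thinned to 8700 UMIs each, PCNA made up 36.8% of the members' rule-gene UMIs with ETV6-RUNX1 and 40.0% in the control, and a median member held 3 and 4 PCNA UMIs. CCNE2, the activator of CDK2 at S-phase entry, had the largest ratio and the lowest level. CCNE2 was at 16.6 CPM in ETV6-RUNX1 members and 5.40 CPM in remaining cells, and at 21.5 and 5.20 CPM in the control, log2 ratios of 1.62 (1.27 to 1.97) and 2.05 (1.71 to 2.38). It was under the 10 CPM at which a gene was taken as measured over all kept cells.

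The licensing genes of the rule were near 2-fold. MCM5 was at 125 CPM in ETV6-RUNX1 members and 57.8 CPM in remaining cells, and at 134 and 63.2 CPM in the control. MCM6 was at 93.8 and 44.8 CPM with ETV6-RUNX1, and at 101 and 47.3 CPM in the control. MCM2 had the smallest ratios, 0.91 (0.72 to 1.09) and 0.82 (0.62 to 1.00) on the log2 scale, with 52.5 against 28.0 CPM with ETV6-RUNX1 and 49.9 against 28.3 CPM in the control. The loader CDC6 was at 66.7 and 31.0 CPM with ETV6-RUNX1 and at 72.8 and 34.3 CPM in the control. GINS2 was at 187 and 82.6 CPM, and at 190 and 82.4 CPM. The glycosylase UNG followed at 79.1 and 31.8 CPM with ETV6-RUNX1, and at 92.5 and 34.2 CPM in the control.

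These ratios are larger than they would be in UMIs that did not choose the members. With members chosen on 1 part of each cell's UMIs and measured in the other, the log2 ratio of PCNA was 1.07 with ETV6-RUNX1 and 1.19 in the control. That of CCNE2 was 1.43 in both, and that of UNG 0.95 and 1.15. MCM2 was at 0.48 and 0.53, MCM6 at 0.55 and 0.74, and CDC6 at 0.55 and 0.82. All 8 rule genes stayed above 0 in both libraries, with CCNE2, PCNA and UNG the 3 highest.

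Across 5947 measured genes other than the rule genes, 34 were at least 1.5-fold higher in members than in remaining cells in both libraries and 20 were lower by that size. These are 0.572% and 0.336% of the genes, and nothing is read from the shares, since the members were chosen on genes that vary with them. All but a few of the differences were small: the median log2 ratio over all these genes was 0.05 with ETV6-RUNX1 and 0.04 in the control. TMM scaling, which resets that median, gave 20 higher and 23 lower genes, and a score without PCNA kept 14 of the 34 higher genes at 1.5-fold. FAM111B, a protease that acts at replication forks, had the highest ratio, with 40.4 CPM in ETV6-RUNX1 members and 20.1 CPM in remaining cells, and 41.1 and 18.4 CPM in the control. It was the 1 gene at least 2-fold higher in both libraries, with log2 ratios of 1.00 (0.79 to 1.21) and 1.16 (0.94 to 1.37).

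Licensing and helicase genes outside the rule had a median log2 ratio of 0.38 with ETV6-RUNX1 and 0.42 in the control. Of 24 listed, 19 were measured, 16 of these were above 0 in both libraries, as were 45.9% of all measured genes, and 4 were 1.5-fold higher in both. These were CDC45, DONSON, MCM10 and MCM3. CDC45, which joins the ring to make the active helicase, was at 58.6 CPM in ETV6-RUNX1 members and 32.5 CPM in remaining cells, and at 66.6 and 35.0 CPM in the control. MCM3, a subunit of the ring, was at 120 and 76.6 CPM with ETV6-RUNX1 and at 128 and 83.8 CPM in the control. MCM10, which helps to activate the helicase, was at 68.2 and 41.0 CPM, and at 68.8 and 43.1 CPM.

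The following licensing genes were chosen after their values were seen. CDT1, which brings the ring to origins, had log2 ratios of 0.50 and 0.40, and GMNN, its inhibitor that accumulates in S and G2, of 0.55 and 0.63. DBF4, the activator of CDC7, was at 74.5 CPM in ETV6-RUNX1 members and 79.1 CPM in remaining cells, and at 73.1 and 82.4 CPM in the control. ORC2, a subunit of the origin recognition complex, was at 12.9 and 13.6 CPM, and at 9.12 and 12.5 CPM. Neither of the last 2 was above 0 in either library.

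Genes of the replication fork were the list with the most genes 1.5-fold higher in both libraries, and also the list with the most measured genes. Of 33 listed, 32 were measured, 28 were above 0 in both libraries and 8 were 1.5-fold higher in both, with a median log2 ratio of 0.48 in each library. The smaller list of polyadenylated histone transcripts had 3 of 9 measured genes at that size in both. Its medians were 0.57 with ETV6-RUNX1 and 0.46 in the control. FEN1, which trims the flaps between Okazaki fragments, was at 118 CPM in ETV6-RUNX1 members and 62.0 CPM in remaining cells, and at 133 and 72.4 CPM in the control. CLSPN, a mediator of the fork checkpoint, was at 140 and 79.4 CPM with ETV6-RUNX1 and at 145 and 76.8 CPM in the control. The others were DSCC1 and RFC4 of clamp loaders, CHAF1B and ASF1B of nucleosome assembly, POLA2 of the primase complex and POLE2 of polymerase epsilon. KIAA0101, a binding partner of PCNA, was at 738 and 626 CPM with ETV6-RUNX1 and at 701 and 617 CPM in the control. Members were chosen on PCNA and not on KIAA0101, so the sizes of their ratios are not compared.

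Genes of nucleotide synthesis had medians of 0.39 and 0.38. Of 19 measured, 17 were above 0 in both libraries, and RRM2 and TYMS were 1.5-fold higher in both. RRM2, the S-phase subunit of ribonucleotide reductase, was at 161 CPM in ETV6-RUNX1 members and 87.8 CPM in remaining cells, and at 170 and 89.8 CPM in the control. TYMS, thymidylate synthase, was at 404 and 246 CPM with ETV6-RUNX1 and at 405 and 263 CPM in the control. TK1, thymidine kinase, had log2 ratios of 0.51 (0.42 to 0.60) and 0.54 (0.45 to 0.63). TYMS overlaps a gene on the other strand in the genome, and the sources used here do not say how the counting treated such overlaps.

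Repair, checkpoint and chromatin genes of S phase had medians of 0.44 and 0.47, and 19 of 20 measured were above 0 in both libraries. SLBP, which binds histone mRNA and peaks in S phase, was at 183 and 117 CPM with ETV6-RUNX1, and at 202 and 123 CPM in the control. It was at 1.5-fold in both libraries. Outside the lists, WDR76, PSMC3IP, PAQR4, KLHL23, EIF4A3 and ABHD3 were also among the 20 highest. EIF4A3, a core of the exon junction complex, was the most abundant of them, at 148 and 88.3 CPM with ETV6-RUNX1 and at 168 and 103 CPM in the control.

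Genes of G1/S control had lower ratios than the replication lists. The median log2 ratios were 0.22 and 0.23, and 2 of 21 measured genes, TFDP1 and FBXO5, were 1.5-fold higher in both libraries. TFDP1, a dimer partner of E2F factors, was at 17.4 CPM in ETV6-RUNX1 members and 9.51 CPM in remaining cells, and at 29.6 and 18.9 CPM in the control. With the score computed without PCNA, its log2 ratios were 0.15 with ETV6-RUNX1 and -0.019 in the control. FBXO5, an inhibitor of the anaphase-promoting complex, had log2 ratios of 0.63 (0.43 to 0.83) and 0.75 (0.55 to 0.94). CDK2, the partner of cyclin E, had log2 ratios of 0.56 (0.27 to 0.84) and 0.65 (0.38 to 0.92).

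E2F1, RB1 and MYC were chosen after their values were seen. E2F1, an activator among the E2F factors, was above 0 in both libraries, with log2 ratios of 0.40 (0.26 to 0.53) and 0.64 (0.49 to 0.78), and was at 86.1 CPM in ETV6-RUNX1 members and 65.4 CPM in remaining cells, and at 80.2 and 51.6 CPM in the control. RB1, which holds E2F factors in check, was at 47.3 and 43.8 CPM, and at 33.4 and 41.9 CPM. MYC was at 98.5 and 105 CPM with ETV6-RUNX1, and at 138 and 135 CPM in the control. MYC therefore differed more between the libraries than between members and remaining cells.

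Of the 34 genes higher in members, 23 were matched in the promoter table, and 9 of their 29 promoters (31.0%) held the E2F motif defined above. Of the 20 lower genes, 16 were matched, and 1 of 17 promoters (5.88%) held it, close to the 5.21% of measured genes. With TTTCCCGC or TTTGGCGC alone these shares were 20.7% and 5.88%, against 4.42% of promoters of measured genes. The higher genes were picked from the same contrast as the rule, so these shares describe them and support nothing else.

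Transcripts of mitosis were lower in members. Of 26 measured genes of the mitosis list, 23 were below 0 in both libraries, as were 26.2% of all measured genes, and 14 were 1.5-fold lower in both, with medians of -0.61 with ETV6-RUNX1 and -0.74 in the control. PLK1, a kinase of mitotic entry, was at 11.1 CPM in ETV6-RUNX1 members and 39.2 CPM in remaining cells, and at 11.0 and 40.5 CPM in the control, 3.52-fold and 3.68-fold lower. The centromeric histone CENPA was at 15.3 and 40.1 CPM with ETV6-RUNX1 and at 14.3 and 43.5 CPM in the control. CDC20, an activator of the anaphase-promoting complex, was at 34.4 and 71.0 CPM, and at 34.2 and 82.8 CPM. CCNB1, the cyclin of mitotic entry, was at 33.4 and 63.6 CPM with ETV6-RUNX1, and at 26.5 and 69.4 CPM in the control.

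PIF1, a DNA helicase outside the lists, had the lowest ratio of all. It was at 2.58 CPM in ETV6-RUNX1 members and 23.5 CPM in remaining cells, from 16 and 888 UMIs, and at 3.78 and 23.1 CPM in the control, from 22 and 854 UMIs. That is 9.10-fold lower with ETV6-RUNX1 and 6.11-fold lower in the control, log2 ratios of -3.19 and -2.61. The ratios were -3.43 and -2.81 when members were chosen on 1 part of the UMIs and measured in the other. PSRC1, which associates with spindle microtubules, was next among genes outside the mitosis list, at 5.01 and 12.9 CPM with ETV6-RUNX1 and at 4.13 and 13.2 CPM in the control.

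Genes of late S and G2 lay between the replication and mitosis lists. The medians were 0.12 with ETV6-RUNX1 and -0.01 in the control over 21 measured genes, of which 9 were above 0 and 7 below 0 in both libraries. TOP2A, the topoisomerase that separates sister chromatids, was the 1 gene at 1.5-fold in both, at 103 CPM in ETV6-RUNX1 members and 175 CPM in remaining cells, and at 86.2 and 168 CPM in the control. UBE2T, an enzyme of the Fanconi anaemia pathway, went the other way, at 205 and 134 CPM with ETV6-RUNX1 and at 212 and 158 CPM in the control.

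The lists unrelated to replication were near the median of all genes. Ribosome biogenesis had medians of 0.03 and 0.07 over 27 genes, B-cell precursor genes of -0.02 and 0.02 over 26, p53 targets and apoptosis genes of 0.01 and 0.01 over 16, and the 13 mitochondrially encoded genes of -0.04 and -0.05. None of these genes was 1.5-fold different in both libraries. DNTT was at 432 and 362 CPM with ETV6-RUNX1 and at 404 and 308 CPM in the control, log2 ratios of 0.25 (0.19 to 0.31) and 0.39 (0.33 to 0.46). VPREB1 was at 606 and 737 CPM with ETV6-RUNX1, and at 937 and 1077 CPM in the control. The p53 target GADD45A had log2 ratios of 0.44 (0.26 to 0.62) and 0.22 (0.00 to 0.42).

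Along the whole score the replication lists changed gradually. Kept cells were ranked into 20 bins of equal size, and the licensing genes outside the rule summed to 502, 930 and 1294 CPM in bins 2, 10 and 20 with ETV6-RUNX1, and to 666, 957 and 1383 CPM in control cells. Mitosis genes summed to 1796, 1609 and 1103 CPM in those bins with ETV6-RUNX1, and to 2790, 1525 and 1147 CPM in control cells. Ribosome biogenesis genes summed to 5627, 6159 and 6045 CPM, and to 6118, 6445 and 6623 CPM. The course of the mitosis genes was uneven. Their highest sum was 2571 CPM in bin 3 with ETV6-RUNX1 and 2886 CPM in bin 4 in control cells. With ETV6-RUNX1 the mitosis sum was still 1963 CPM in bin 9, above that of bin 2. The lowest bin differed from the next one, with mitosis genes at 993 CPM with ETV6-RUNX1 and 1303 CPM in control cells, and was shallower, with a median of 10701 UMIs per cell with ETV6-RUNX1 and 15077.5 in the control. The part of depth in that bin was not tested.

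At the level of single cells the members overlapped the remaining cells in every list outside the rule. In thinned cells, 73.8% of ETV6-RUNX1 members and 77.4% of control members stood above the remaining cells' median for the other licensing genes. The shares were 77.0% and 80.0% for fork genes and 82.3% and 80.4% for nucleotide synthesis. For the polyadenylated histone transcripts they were 60.3% and 54.3%, for mitosis 38.4% and 24.2%, and for ribosome biogenesis 54.4% and 55.8%.

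The working label, cells at G1/S entry, was compared with the transcripts of histone genes. The libraries were made from poly-A transcripts, so the histone counts are of transcripts captured that way. How closely these counts follow DNA synthesis was not tested. HIST1H4C, which gave most of the histone UMIs, was at 4917 CPM in ETV6-RUNX1 members and 4027 CPM in remaining cells, and at 4458 and 4220 CPM in the control. HIST1H1D was at 126 and 76.4 CPM with ETV6-RUNX1 and at 110 and 59.9 CPM in the control, and HIST1H2AH and HIST1H2BC were also 1.5-fold higher in both libraries. Of 26 histone genes listed, 9 were measured and all 9 were above 0 in both; near-identical histone genes can share reads, so single members of this family are uncertain.

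Histone levels differed widely among members. The quartiles of the histone share were 0.0998%, 0.557% and 0.848% of UMIs in ETV6-RUNX1 members and 0.107%, 0.499% and 0.762% in control members. In all, 9.71% (6.78 to 13.4) of ETV6-RUNX1 members and 7.86% (4.99 to 11.7) of control members lay in the lowest histone quartile of the remaining cells. The second quartile held 30.6% and 33.6%, the third 29.7% and 37.9%, and the highest 30.0% (25.2 to 35.2) and 20.7% (16.1 to 25.9). Members thus spanned histone-low to histone-high cells of the remaining population, and the histone share does not place them in 1 stage. They are called members here.

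The 102 members in the highest and the 33 in the lowest histone quartile with ETV6-RUNX1, and the 58 and 22 in the control, differed in genes outside the rule. This division was made after the data were seen. Members were chosen on the sum of the rule genes, so a like sum was set by the choice, a lower level of one rule gene goes with higher levels of others, and the values of rule genes here are a description. The rule genes summed to 981 CPM in histone-high and 1010 CPM in histone-low members with ETV6-RUNX1, and to 1093 and 1019 CPM in control cells. UNG was at 40.2 CPM in histone-high and 111 CPM in histone-low members with ETV6-RUNX1, and at 38.4 and 101 CPM in the control, log2 ratios of -1.46 (-1.98 to -0.93) and -1.39 (-2.03 to -0.75). PCNA was at 421 and 337 CPM with ETV6-RUNX1 and at 528 and 319 CPM in the control. RRM2 was at 209 and 63.9 CPM with ETV6-RUNX1 and at 192 and 78.6 CPM in the control.

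MCM2, MCM5, MCM6, CCNE2 and CDC6 had intervals of the log2 ratio that held 0 in both libraries. GINS2 had -0.12 (-0.46 to 0.24) with ETV6-RUNX1 and, in control cells, -0.53 (-0.89 to -0.15). For MCM6 the interval ran from -0.38 to 0.66 for ETV6-RUNX1 members and from -0.32 to 0.76 for control members, so a difference of 1.5-fold in that direction is within counting error. CDK1 was at 87.1 and 32.0 CPM with ETV6-RUNX1 and at 108 and 24.6 CPM in the control, and TOP2A at 176 and 40.5 CPM, and at 148 and 56.5 CPM. Histone-low members were also shallower, with a median of 12545 UMIs against 19590.5 in histone-high members with ETV6-RUNX1, and 15166.5 against 21899.5 in the control. The part of depth in these differences was not tested.

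Cell-cycle calls, made on thinned cells of both libraries together and without the rule genes, placed most members in S. Of ETV6-RUNX1 members 61.0% (55.3 to 66.5) were called S, against 29.1% (26.9 to 31.3) of remaining cells, and 74.3% (68.6 to 79.5) of control members, against 28.1% (25.8 to 30.4). G1 was called in 2.62% and 1.13% of members, against 16.0% and 12.2% of remaining cells. G2M was called in 36.4% of ETV6-RUNX1 members and 54.9% of their remaining cells, and in 24.5% and 59.8% in the control. Without thinning the members' S shares were 80.3% and 88.9%. Of ETV6-RUNX1 members 35.4%, and of control members 41.9%, lay within 0.05 of a score of 0. A score of 0 divides G1 from the other calls, while S and G2M are divided by the higher score. How close the S and G2M scores of single members lay was therefore not measured by these shares. Whether free RNA in the droplets contributes to the calls was not tested.

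Between the constructs, the rule genes were at 494 CPM over all kept cells with ETV6-RUNX1 and 536 CPM in the control. The threshold for members was accordingly lower with ETV6-RUNX1, and a single threshold over both libraries would take 12.8% (11.5 to 14.3) of ETV6-RUNX1 cells and 17.6% (15.9 to 19.5) of control cells. In thinned cells these shares were 13.7% (12.2 to 15.2) and 17.4% (15.6 to 19.2). With 1 library per construct, these intervals do not cover the spread between cultures.

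Within members, the ratios of ETV6-RUNX1 over control for the rule genes were small. They ran from -0.37 (-0.76 to 0.02) for CCNE2 to 0.07 (-0.16 to 0.31) for MCM2 on the log2 scale. PCNA had -0.19 (-0.27 to -0.10) in members and -0.24 (-0.30 to -0.18) in remaining cells. The medians over list genes were -0.01 for other licensing genes, -0.06 for fork genes and -0.11 for nucleotide synthesis in members, against -0.08, -0.02 and -0.14 in remaining cells and -0.03 over all measured genes in members. No gene of these 3 lists was 1.5-fold different between the constructs in members.

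In members, 68 (1.14%) of 5954 measured genes reached 1.5-fold higher with ETV6-RUNX1 and 119 (2%) reached 1.5-fold lower, against 12 (0.202%) and 34 (0.571%) in remaining cells. Members hold fewer UMIs. Among the 2032 genes at 50 CPM or more, where counting error is small, the counts were 4 and 22 in members and 1 and 9 in remaining cells. When ribosomal protein and mitochondrially encoded genes did not enter the totals, the members' counts were 84 higher and 97 lower. PTPRCAP, which binds the phosphatase CD45, was at 29.4 CPM in ETV6-RUNX1 members and 98.4 CPM in control members, a log2 ratio of -1.74 (-1.99 to -1.50), against -1.48 in remaining cells. RASGRP2, an exchange factor for Rap, was at 32.5 and 104 CPM, -1.68 (-1.91 to -1.44), against -1.39. LAT2, an adaptor of antigen receptor signalling, was at 12.9 and 43.0 CPM, -1.73 (-2.12 to -1.37), against -1.80.

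Of the 23 genes listed because they were earlier seen to differ between these libraries, 13 were 1.5-fold lower and 8 were 1.5-fold higher with ETV6-RUNX1 in members. Their median was -0.63 in members and -0.67 in remaining cells; the list was chosen on these libraries and is no independent evidence. TFDP1 was both in this list and in that of G1/S control, at 17.4 CPM in ETV6-RUNX1 members and 29.6 CPM in control members, -0.76 (-1.12 to -0.41), and at -0.99 (-1.18 to -0.81) in remaining cells. FAM129C had -1.49 (-1.79 to -1.19) in members, and S100A6, N4BP3, GPR146 and RMND5B between -1.26 and -1.46. S100A6 was at 7.43 CPM in ETV6-RUNX1 members, against 18.1 CPM in control members.

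The highest genes with ETV6-RUNX1 in members had low levels. DMWD, SNTB1, CYB5D2, C10orf10, PRKCZ, ASS1 and OPTN had log2 ratios from 1.38 for DMWD to 1.05 for OPTN, with 72 UMIs in ETV6-RUNX1 members and 26 in control members for DMWD. All of these but ASS1 were also higher with ETV6-RUNX1 in remaining cells, with log2 ratios from 0.41 for C10orf10 to 0.75 for CYB5D2. ASS1, argininosuccinate synthase, was at 16.5 and 7.40 CPM in members, 1.16 (0.63 to 1.70), and at 9.48 and 9.50 CPM in remaining cells.

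Some mitotic transcripts were higher in ETV6-RUNX1 members than in control members; HMMR and CENPE were chosen after their values were seen. HMMR, a spindle-associated protein, was at 28.4 CPM in ETV6-RUNX1 members and 19.1 CPM in control members, a log2 ratio of 0.57 (0.22 to 0.93), against -0.04 (-0.13 to 0.05) in remaining cells. CENPE, a kinesin of the kinetochore, had 0.41 (0.04 to 0.78) in members and 0.04 (-0.06 to 0.14) in remaining cells, and CCNB1 0.34 (0.03 to 0.65) and -0.13 (-0.21 to -0.05). PLK1 was alike in both, at 11.1 and 11.0 CPM in members. Over the mitosis list the median ratio of ETV6-RUNX1 over control was 0.11 in members and -0.06 in remaining cells. With a single threshold over both libraries the list's median ratio of members over remaining cells was -0.63 with ETV6-RUNX1 and -0.77 in the control, against -0.61 and -0.74 as chosen within libraries. The lower threshold and the shallower members of the ETV6-RUNX1 library move with this difference, and their part in it was not tested.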

How the data were processed

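Single-cell messenger RNA of Nalm-6 cells was measured in 2 libraries, 1 per construct. The authors deposited raw UMI counts per gene and barcode, with no normalization, for 32738 genes; the tool was Cell Ranger 3.0.2 and the genome build hg19, per the submitters' processing notes and the file headers. The sources used here do not say how reads of overlapping genes were counted, and no hg19 annotation was used, so no coordinates of measured genes are given.

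Barcodes with at least 1000 genes and at most 10% mitochondrial UMIs were kept. Members were the top 15% of kept cells of each library by rule-gene UMIs over total UMIs. UMIs were summed over members and over remaining cells and scaled to CPM by that sum. Log2 ratios have exact conditional Poisson 95% intervals, shares have exact binomial (Clopper-Pearson) 95% intervals, and both cover counting error only, not the spread between cells or cultures. A gene was measured at 10 CPM or more over all kept cells of at least 1 library, a filter that does not use the members. With 1 library per construct there is no replicate check and no test. Kept cells held 43941536 UMIs with ETV6-RUNX1 and 42762188 in the control.

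The members and gene lists were chosen with earlier results of these data known. Named genes were the rule genes, the 20 highest and 12 lowest ratios of members over remaining cells (same direction and at least 1.25-fold in both libraries), the 8 highest and 8 lowest of ETV6-RUNX1 over control in members (at least 1.5-fold, interval without 0), up to 4 genes per list with the largest mean ratio, and genes whose ratios went opposite ways in the libraries or kinds of cell. Some genes that this rule names are not reported here. Of the listed symbols, 9 were not matched and are not used here. Thinning drew 8700 UMIs per cell, which left out 224 and 84 shallower cells, 35 and 15 of them members. Cell-cycle calls and Scrublet (expected rate 0.05, doublets left in) were run in scanpy 1.11.5, and TMM factors came from edgeR 4.0.16. Promoters came from RefSeq (GRCh38.p14), matched by symbol. The ratio, its interval and the member choice were tested on simulated data.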

Additional observations from a re-analysis of the deposited data

Results flagged for a closer look

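PURB, which encodes a single-stranded nucleic acid binding protein, had opposite directions in the libraries, with log2 ratios of members over remaining cells of 0.42 (0.10 to 0.73) for ETV6-RUNX1 cells and -0.59 (-1.03 to -0.17) for control cells, from 16.5 and 12.3 CPM and from 8.77 and 13.2 CPM. EGFL7, which encodes a secreted protein, had opposite directions in the 2 kinds of cell, with a log2 ratio of ETV6-RUNX1 over control of 0.52 (0.04 to 1.00) in members, at 15.5 and 10.8 CPM, and of -0.33 (-0.48 to -0.18) in remaining cells, at 17.4 and 21.9 CPM. Both were picked out of 5947 measured genes as those whose intervals excluded 0 on opposite sides with at least the chosen sizes, and the difference between the ratios was not tested in either case, since there was 1 library per construct.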

How the results depend on the processing

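The counts depend most on the size and the floor chosen. With the smaller alternative size, 254 genes were higher and 80 lower in members than in remaining cells, and at 2-fold 1 and 7; the counts with ETV6-RUNX1 in members were 354 higher and 544 lower, and 9 and 15. A floor of 1 CPM left 10768 measured genes, against 5954 as reported, and gave 123 and 105 genes, and 720 and 807 with ETV6-RUNX1. A floor of 50 CPM left 2032 measured genes and gave 10 and 8, and 4 and 22. These counts are over unlike totals. Equal gene weights gave 19 higher genes, a score without PCNA 15 and TMM scaling 20, of which 17, 14 and 20 were among the 34. With ETV6-RUNX1 in members, the top 10% gave 111 higher genes and the top 20% gave 45; thinned cells gave 202 higher and 269 lower, and members chosen and measured on separate parts of the UMIs 142 and 201, both from fewer UMIs. Without thinning, S was called in 80.3% of ETV6-RUNX1 members and 88.9% of control members, and G2M in 17.9% and 9.29%. With the rule genes in the S list, G1 was called in 0.984% of ETV6-RUNX1 members and 0% of control members (0 of 265, interval 0 to 1.38%). S was then called in 71.5% and 86.4%, and G2M in 27.5% and 13.6%. The control ratio of TFDP1 turned to -0.019 without PCNA, and that of the genes of other cell types to -0.054 in thinned cells; the cause was not tested. No paired analysis was possible because there was 1 library per construct, which also left no replicate to leave out.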
